A study of Mus musculus with 4 samples.

Results

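The 37 genes described here act in DNA replication and mitosis and were taken by symbol from the 31053 genes counted in wound leukocytes. All 37 symbols were found, each with a single feature row. Of these, 11 are replication genes, namely the 6 subunits of the Mcm helicase (Mcm2 to Mcm7) and 5 genes of the sliding clamp and of nucleotide synthesis (Pcna, Rrm1, Rrm2, Tyms and Tk1). A further 23 are mitosis genes. They comprise the cyclin genes Ccna2, Ccnb1 and Ccnb2 with Cdk1, 4 genes of the anaphase-promoting complex and the spindle checkpoint (Cdc20, Ube2c, Bub1 and Bub1b), 5 of mitotic kinases and their passengers (Aurka, Aurkb, Plk1, Birc5 and Cdca8), 3 of the centromere (Cenpa, Cenpe and Cenpf), 5 of the spindle (Hmmr, Tpx2, Nusap1, Kif11 and Kif20a), and Mki67 and Top2a. Ccne1, Ccne2 and Stmn1 were counted with the 37 but in neither group. Live CD45+ leukocytes were sorted from 3 mm excisional skin wounds of 8-week-old male Angptl4+/+ and Angptl4-/- mice. The strain label of all 4 samples is C57BL6/J. Wounds were taken either 1 day or 5 days after wounding (1 and 5 dpw), and the cells were sequenced in droplets. Angptl4 encodes a secreted inhibitor of lipoprotein lipase, and the knockout removed it in the whole animal, not in leukocytes alone. There was 1 library for each genotype and day, and the number of mice behind a library is not given in the sources used here. Unless stated otherwise, 4 values in a row are those of Angptl4+/+ at 1 dpw, Angptl4+/+ at 5 dpw, Angptl4-/- at 1 dpw and Angptl4-/- at 5 dpw. Without replicates no difference between libraries was tested. All intervals are 95% intervals for counting error only, and they treat UMIs as independent although a few cells supplied many of them. Counts of the 37 genes by direction often draw on the same few cells, so the genes are not separate observations.

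A dividing cell first loads Mcm helicases onto its DNA and makes nucleotides, copies the DNA behind the Pcna clamp, and then enters mitosis under cyclin B and Cdk1. The spindle pulls the chromosomes apart once the checkpoint proteins let Cdc20 and Ube2c send cyclin B for destruction. Neutrophils leave the bone marrow as cells that no longer divide, whereas activated lymphocytes, tissue macrophages and dendritic cell precursors can divide in an inflamed tissue.

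Of 20069 deposited barcodes, 19827 passed the cell filter, between 4738 and 5346 in each library, with medians of 3735.5 to 4975.5 UMIs per cell. Angptl4 had 47 and 78 UMIs in the Angptl4+/+ libraries at 1 and 5 dpw and 0 in both Angptl4-/- libraries. Clusters were named from marker lists without the use of the 37 genes or other listed cell cycle genes. Neutrophil-like cells made up 54.5% to 77.1% of a library, macrophage-like cells 13.7% to 31.3%, monocyte-like cells 2.65% to 2.94% and dendritic cell-like cells 1.79% to 6.25%. NK/T cell-like cells were 0.711% of Angptl4+/+ and 0.709% of Angptl4-/- leukocytes at 1 dpw, and 4.67% and 4.64% at 5 dpw. The libraries held 5, 21, 2 and 27 B cell-like cells. Every marker of each list was seen in at least 5% of the cells of its class. Libraries shared 5 to 15 cell barcodes in pairs, 50 barcodes in all.

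Genes of this kind are known for promoter elements that bind E2F factors, the DREAM complex or NF-Y. RefSeq promoter sequences (GRCm38.p6) were found for 30 of the 37 genes and not for Mcm4, Ccna2, Ccne2, Aurkb, Tpx2, Stmn1 and Kif20a. The letters searched, on both strands of the 250 bases before the start, were TTTGAA or TTCGAA (the CHR element), CCAAT, and TTTGGCGC, TTTCGCGC, TTTGCCGC or TTTCCCGC (E2F). CCAAT was found in 25 of the 30 promoters (83.3%), against 37.5% of the promoters of 27025 genes. CHR letters were found in 10 (33.3%), against 19.6%, and in 8 of 19 mitosis genes and 2 of 10 replication genes. E2F letters were found in 4 (13.3%), against 2.16%, these being Mcm5, Mcm6, Mcm7 and Cdk1. Both CHR and CCAAT stood in 10 of the 30 (33.3%), against 7.93%. A match describes letters and not a bound site. Shown here are Cdk1 and Ccnb2, mitosis genes with large differences between libraries, and Mcm6, a replication gene that differed from them, with the matches in capitals. The Cdk1 window is chr10:69352913-69353162, that of Ccnb2 chr9:70421555-70421804 and that of Mcm6 chr1:128359706-128359955, all on the minus strand, with ATTGG where CCAAT lies on the other strand.
Cdk1: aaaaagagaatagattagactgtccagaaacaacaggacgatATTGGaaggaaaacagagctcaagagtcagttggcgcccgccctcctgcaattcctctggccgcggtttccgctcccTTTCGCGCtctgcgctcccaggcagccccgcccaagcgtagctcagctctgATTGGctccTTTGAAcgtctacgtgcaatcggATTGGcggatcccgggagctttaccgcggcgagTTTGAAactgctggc
Ccnb2: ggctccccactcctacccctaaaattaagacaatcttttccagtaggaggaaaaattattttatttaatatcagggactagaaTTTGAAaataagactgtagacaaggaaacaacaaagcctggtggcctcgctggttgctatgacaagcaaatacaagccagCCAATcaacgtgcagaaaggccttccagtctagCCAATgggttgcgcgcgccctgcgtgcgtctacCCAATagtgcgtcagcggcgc
Mcm6: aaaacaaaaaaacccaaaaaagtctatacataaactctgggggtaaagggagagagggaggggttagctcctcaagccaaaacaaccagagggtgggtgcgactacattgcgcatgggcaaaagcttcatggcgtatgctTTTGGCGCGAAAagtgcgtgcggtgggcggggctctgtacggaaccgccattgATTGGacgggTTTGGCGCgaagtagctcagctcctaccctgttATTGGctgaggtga
The Cdk1 window held CHR, CCAAT and E2F letters, and that of Ccnb2 CHR and CCAAT. That of Mcm6 held CCAAT and E2F letters, and its stretch TTTGGCGCGAAA holds overlapping E2F matches on both strands.

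Most leukocytes held no UMI of any of the 37 genes, and the genes were found together in few cells. Of the passing cells, 12998 held none, 4087 held UMIs of 1 gene, 1421 of 2 genes and 688 of 3 genes. At the other end, 74 cells held UMIs of 20 to all 37 genes. Depth moved with this count, with a median of 3867.5 UMIs per cell among cells with none and 24846 among the 74. Its part in the count was not tested.

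Cells with UMIs of at least 5 of the genes numbered 56 of 5346 (1.05%) in Angptl4+/+ wounds at 1 dpw and 157 of 4945 (3.17%) at 5 dpw. They numbered 27 of 4798 (0.563%) and 115 of 4738 (2.43%) in Angptl4-/- wounds. Both genotypes had more at 5 dpw, by 2.13 percentage points (1.58 to 2.71) in Angptl4+/+ and 1.86 points (1.39 to 2.37) in Angptl4-/- wounds. At 5 dpw the difference of Angptl4-/- from Angptl4+/+ wounds was -0.748 points (-1.41 to -0.0887). Neutrophil-like cells, none of which held 5 of the genes, made up 54.5% of Angptl4+/+ and 73.8% of Angptl4-/- cells there. Their part in this difference was not tested. By class the share in the same order was 3.61% and 5.26% in monocyte/macrophage-like and 9.71% and 12.2% in dendritic cell-like cells. In NK/T cell-like cells it was 28.6% and 21.8%.

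A cut of 10 genes, chosen after the data were seen, gave 5, 64, 6 and 45 cells. These were 0.0935%, 1.29%, 0.125% and 0.950% of the libraries. The 64 and 45 cells of 5 dpw held 68.4% and 70.1% of all UMIs of the 37 genes in their libraries, against 5.32% and 17.6% at 1 dpw. When each cell was thinned to 2000 UMIs, 0.237%, 1.91%, 0.201% and 1.12% of cells held at least 3 of the genes, so the days kept their order at equal depth. Of the 120 cells with at least 10 genes, 83 were NK/T cell-like, 18 macrophage-like, 18 dendritic cell-like and 1 monocyte-like. Their replication genes took a median of 42.6% of the replication and mitosis UMIs of a cell, with more replication than mitosis UMIs in 55 cells and the reverse in 65. Among the 4% of cells with the highest doublet scores in their libraries were 4 of the 120 (3.33%), near the 4% set for all cells.

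**Figure D1:**
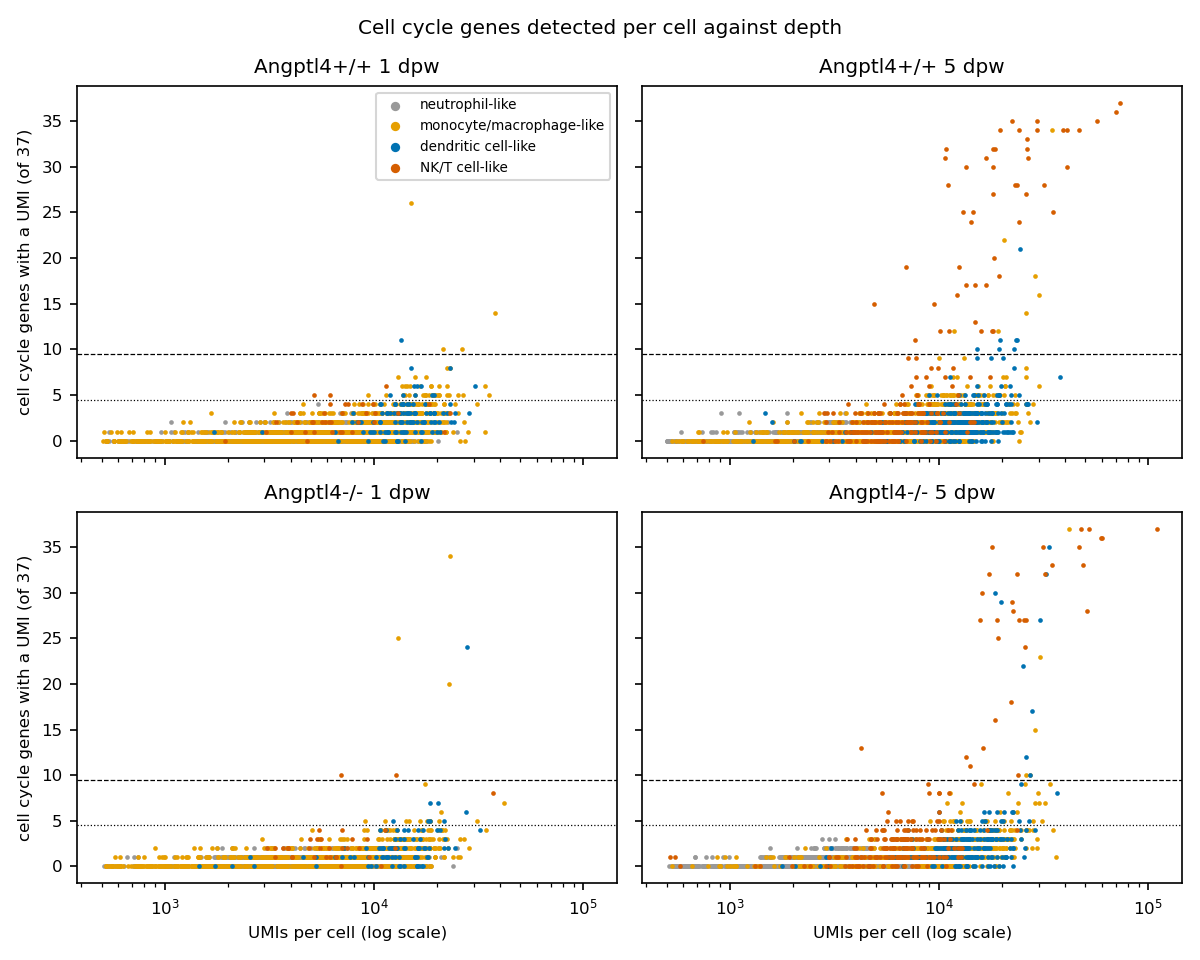
Number of the 37 genes with a UMI (vertical axis) against UMIs per cell (horizontal axis, log scale) for every passing cell of the 4 libraries, coloured by class, with lines at 5 genes (dotted) and 10 genes (dashed). Cells above the dashed line numbered 5 and 6 at 1 dpw and 64 and 45 at 5 dpw, and 83 of the 120 were NK/T cell-like.

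Neutrophil-like cells, which should not divide, served as the background class. Among 3887, 2696, 3698 and 3498 neutrophil-like cells, with median depths of 3218 to 4683 UMIs, 0 held 5 or more of the genes. A count of 0 allows a share of cells with at least 10 genes of up to 0.0772% to 0.111%. Summed over the 37 genes, neutrophil-like cells held 43.8, 75.9, 36.3 and 70.6 UMIs of every 1000000 in the class, here written CPM. Both genotypes were higher at 5 dpw in these cells too, by 0.79 (0.65 to 0.94) and 0.96 (0.81 to 1.11) on the log2 scale, and the part of free RNA in this was not tested.

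The genes differed in how closely they kept to cells with many of the others. Taken over both libraries of 5 dpw, 97.1% of the UMIs of Ccnb1 (cyclin B1, the partner of Cdk1) lay in cells with at least 10 other genes of the 37. The share was 96.8% for Ccna2 (cyclin A2), 97.1% for Cenpf (a kinetochore protein of mitosis), 94.2% for Rrm2 (the regulated subunit of ribonucleotide reductase) and 93.3% for Cdk1. For the proliferation marker Mki67 it was 88.9% and for Top2a, which untangles sister chromosomes, 91.5%. The Mcm genes were lower, from 41.6% (Mcm4) to 65.1% (Mcm5). At the low end were Pcna, which also serves in DNA repair, at 17.5%, and Cenpa, the centromeric histone, at 32.7%.

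The low-end genes were found widely in myeloid cells. Of 3420 Pcna UMIs at 5 dpw, 55.6% lay in monocyte/macrophage-like, 16.7% in neutrophil-like and 17.1% in NK/T cell-like cells. Of 2144 Cenpa UMIs, 37.5% lay in NK/T cell-like and 30.8% in monocyte/macrophage-like cells. Cenpf had 94.8%, Ccnb1 92.0% and Ube2c, the ubiquitin-conjugating enzyme of the anaphase-promoting complex, 91.1% in NK/T cell-like cells. Over the 4 libraries, each of the 37 genes had its highest CPM in the NK/T cell-like class. Since these are pooled UMIs, they do not by themselves tell more cells with a transcript from more transcript per cell.

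Before lymphocytes were common, at 1 dpw, neutrophil-like cells held 63.0% of all UMIs. They held 84.8% of 66 UMIs of Hmmr, a spindle and hyaluronan-binding protein. Aurka, the kinase of the spindle poles, was near the share of all UMIs, at 61.9% of 105 UMIs, and Mki67 below it, at 39.7% of 393 UMIs. Over the 4 libraries Mki67 was seen in 201 and Hmmr in 72 neutrophil-like cells, none of which held 5 of the genes.

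**Figure D2:**
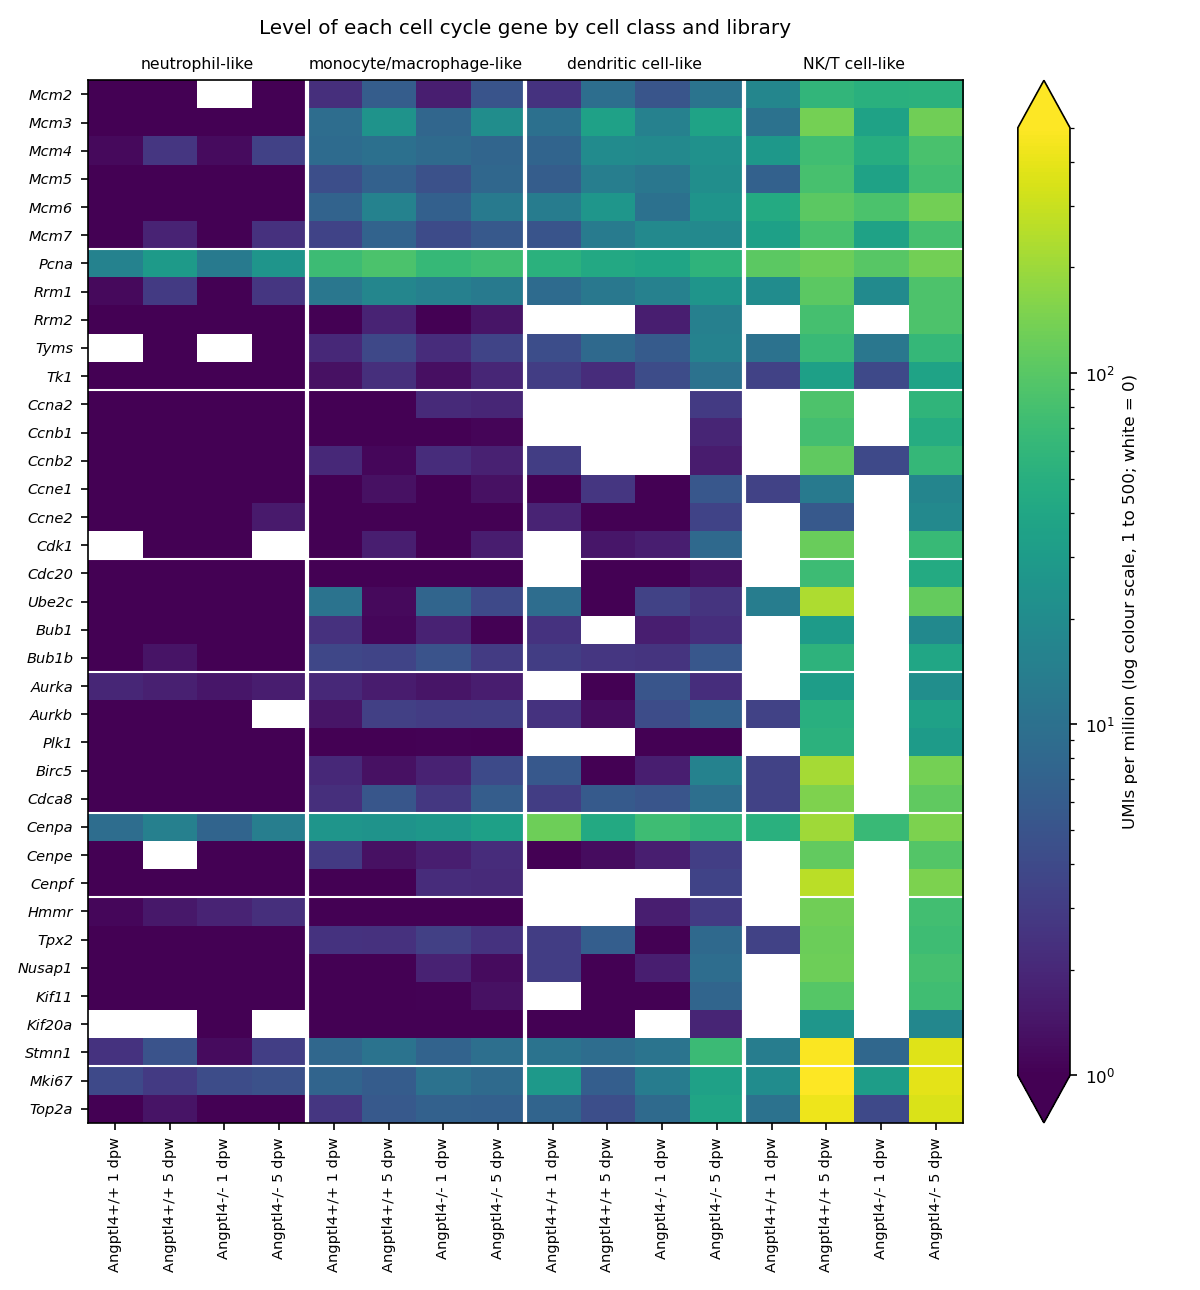
Level of each of the 37 genes (rows, ordered by role) in each class and library (columns), as CPM of the class on a log colour scale, with white for 0. The NK/T cell-like columns of 5 dpw are the brightest (highest), where Stmn1, Mki67 and Top2a reached 483, 508 and 424 CPM in Angptl4+/+ wounds, whereas Pcna and Cenpa stand out from the dark neutrophil-like columns too.

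The comparison of days asks how leukocyte division genes differed between early inflammation and the later wound. Summed over the 37 genes, all leukocytes of Angptl4+/+ wounds held 3780 UMIs (115 CPM) at 1 dpw and 16531 (560.2 CPM) at 5 dpw. Those of Angptl4-/- wounds held 2775 (101 CPM) and 13119 (488 CPM). As a log2 ratio, 5 dpw over 1 dpw gave 2.28 (2.23 to 2.33) for Angptl4+/+ and 2.27 (2.21 to 2.33) for Angptl4-/- leukocytes. All 37 genes were higher at 5 dpw in both genotypes. In Angptl4+/+ wounds 34 of the 37 had at least 100 UMIs over both days, and 32 of these were at least 2-fold higher at 5 dpw, against 30.1% of the 10541 genes with enough UMIs. In Angptl4-/- wounds it was 31 of 32, against 24.7% of 10171. Median log2 ratios over all genes with enough UMIs were themselves 0.66 and 0.62.

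Of the 37 genes, Cdk1 had the highest ratio in both genotypes. Cdk1, the kinase that drives mitosis (ENSMUSG00000019942, chr10:69335146-69352938, minus strand, GRCm38), had 5, 316, 7 and 191 UMIs in the 4 libraries. Its log2 ratios were 6.14 (4.90 to 7.77) and 4.80 (3.73 to 6.13). Ccnb1 went from 5 to 188 and from 7 to 123 UMIs, and Ccna2 from 5 to 210 and from 17 to 161. Summed, Ccna2, Ccnb1, Ccnb2, Ccne1, Ccne2 and Cdk1 had log2 ratios of 3.82 (3.50 to 4.15) and 3.40 (3.06 to 3.76). The cyclins ranged widely, from 0.87 (-0.05 to 1.83) for Ccne2 to 5.55 for Ccna2 in Angptl4+/+ leukocytes.

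The other mitosis genes followed over a wide range. Top2a had 57, 1092, 69 and 993 UMIs in the 4 libraries, with log2 ratios of 4.41 and 3.88. Mki67 had 212, 1311, 181 and 1114 UMIs, with ratios of 2.78 and 2.65. Birc5 (survivin, of the chromosomal passenger complex) had ratios of 4.04 and 4.50, Cenpf 5.64 and 4.12, and Kif11, the spindle motor that separates the poles, 4.62 and 4.37. Cenpa was lowest among these mitosis genes in Angptl4+/+ wounds, at 0.88, and Aurka in Angptl4-/- wounds, at 1.08.

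Replication genes differed less between days as a group, by 1.70 (1.62 to 1.77) and 1.73 (1.64 to 1.81), than mitosis genes, by 2.71 (2.63 to 2.79) and 2.60 (2.51 to 2.69). Pcna, with 1216 and 1959 UMIs in Angptl4+/+ and 798 and 1461 in Angptl4-/- wounds, had ratios of 0.84 and 0.90 and made up much of the replication sum. The Mcm genes together had 2.43 (2.30 to 2.56) and 2.30 (2.15 to 2.44). Rrm2, with 6 and 218 UMIs in Angptl4+/+ and 13 and 264 in Angptl4-/- wounds, stood with the mitosis genes at 5.34 and 4.37.

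Most of the day difference came with the NK/T cell-like cells. They held 0.886% and 0.922% of all UMIs at 1 dpw in Angptl4+/+ and Angptl4-/- wounds and 7.83% and 8.37% at 5 dpw. Of the UMIs of the 37 genes they held 3.12% and 4.94% at 1 dpw, and 66.5% and 61.8% at 5 dpw. With these cells left out, 5 dpw over 1 dpw gave 0.86 (0.80 to 0.92) for Angptl4+/+ and 1.07 (1.00 to 1.13) for Angptl4-/- leukocytes. The all-gene medians given above include the NK/T cell-like cells and are not a like background. With the cells of at least 10 genes left out instead, the log2 ratio was 0.77 and 0.88. Neutrophil-like cells moved with day. They held 59.9% and 66.8% of all UMIs at 1 dpw and 29.2% and 45.6% at 5 dpw in Angptl4+/+ and Angptl4-/- wounds. The part of this in the ratios was not tested.

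Within the NK/T cell-like class, cells at 1 dpw held replication transcripts and few mitotic ones. The class had 38 and 34 cells at 1 dpw and 231 and 220 at 5 dpw in Angptl4+/+ and Angptl4-/- wounds, at median depths of 6108.5 to 6997 UMIs. Summed levels were 406 and 542 CPM at 1 dpw and 4756 and 3605 CPM at 5 dpw. At 1 dpw 17 of the 37 genes were at 0 in Angptl4+/+ and 22 in Angptl4-/- cells, 15 and 19 of them mitosis genes. The 23 mitosis genes held 32 and 27 UMIs there and the 11 replication genes 81 and 108, among them 30 and 25 of Pcna and 13 and 22 of Mcm6. When cell cycle genes were kept in the clustering, the class held 735 and 1485 CPM at 1 dpw, and the log2 ratios of 5 to 1 dpw were 2.71 and 1.37 in place of 3.55 and 2.73.

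All 37 genes were higher at 5 dpw in NK/T cell-like cells of both genotypes. With enough UMIs, 30 of 31 were at least 2-fold higher in Angptl4+/+ cells, against 10.6% of 3846 genes, and 24 of 28 in Angptl4-/- cells, against 8.21% of 3690. Cdk1 had 0 UMIs at 1 dpw and 282 at 5 dpw in Angptl4+/+ cells, which is at least 11.8-fold higher against a floor of 3 UMIs, and 0 and 150 in Angptl4-/- cells, at least 5.62-fold. Cenpf, at 0 and 609 and at 0 and 327, was at least 25.5-fold and 12.2-fold higher. Mitosis genes summed to log2 ratios of 4.91 (4.41 to 5.46) and 4.39 (3.85 to 4.99), and replication genes to 1.77 (1.45 to 2.10) and 1.17 (0.89 to 1.47). Pcna hardly differed, from 103 to 124 CPM and from 98.9 to 133 CPM.

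Few cells carried this. At least 10 of the genes were found in 0 of 38 and 2 of 34 NK/T cell-like cells at 1 dpw, and in 50 of 231 (21.6%) and 31 of 220 (14.1%) at 5 dpw. The 50 and 31 cells held 95.5% and 93.3% of the UMIs of the 37 genes in the class. At the finer clustering, an NK/T cell-like cluster led by Hist1h1b, Pclaf and Hist1h3c held at least 10 of the genes in 24 of 24 and 17 of 17 cells of 5 dpw. Pclaf and Hist1h3c were not among the listed cell cycle genes left out of the clustering. Without the cells of at least 10 genes, the log2 ratio of 5 to 1 dpw was 0.06 in Angptl4+/+ and 0.11 in Angptl4-/- cells. The cut is made on the same genes, so these levels describe the other cells and do not test where the difference lay.

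The cells with many of the genes were of several kinds, split here by identity genes chosen after the data were seen. Of the 83, 39 (47.0%) held a UMI of Foxp3, the transcription factor of regulatory T cells, and 26 (31.3%) one of Ncr1, the NK cell receptor NKp46. None held both. All 39 with Foxp3 also held Trac, the constant region of the T cell receptor alpha chain, and of the 26 with Ncr1, 17 held Trdc, the delta chain constant region. Cd4 was seen in 38, Cd8a in 7, and both in 0. In NK/T cell-like cells with fewer than 10 of the genes, Foxp3 was seen in 8.86% and Ncr1 in 32.5%. Foxp3 was seen in 3 of 4176 macrophage-like cells with fewer than 10 of the genes (0.0718%), a class that should lack it, at median depths of 5832 to 11536 UMIs.

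At 5 dpw, 23 of 36 cells with Foxp3 held at least 10 of the genes in Angptl4+/+ wounds (63.9%, 46.2 to 79.2) and 15 of 31 in Angptl4-/- wounds (48.4%, 30.2 to 66.9). Depth moved with this, at medians of 18236 and 12366 UMIs for these cells against 6997 and 6831 for the class, and a deeper cell is also more likely to show Foxp3. Its part was not tested. Among cells with Ncr1 and no Foxp3 it was 13 of 79 (16.5%) and 13 of 68 (19.1%). Cells with Trac or Trbc2 and none of Foxp3, Ncr1, Trdc and Cd163l1 gave 11 of 84 (13.1%) and 2 of 86 (2.33%). Cells with Trdc or Cd163l1 and neither Foxp3 nor Ncr1 gave 3 of 23 and 0 of 24.

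**Figure D3:**
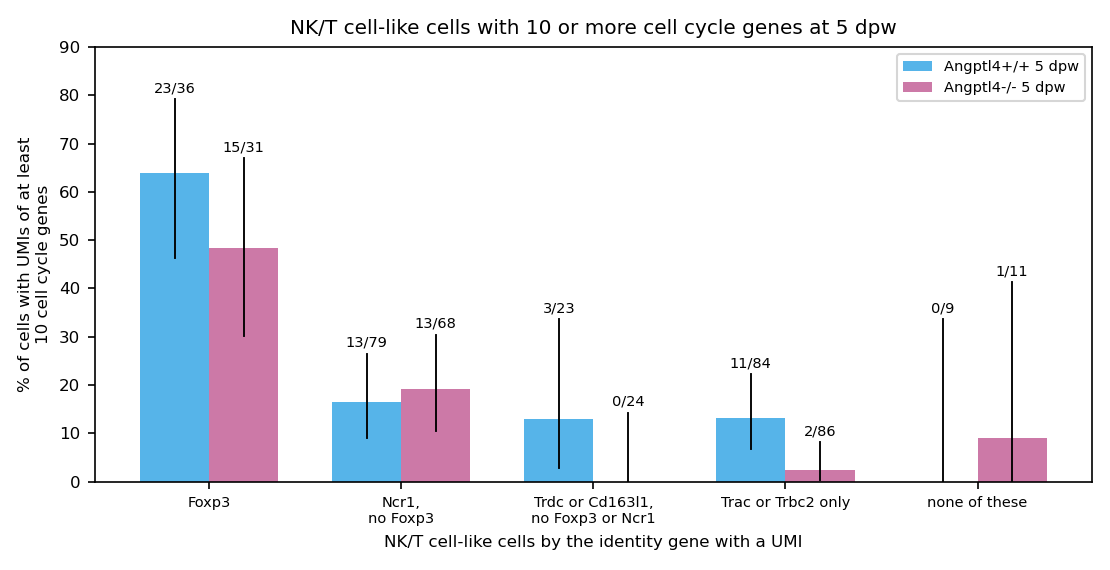
Percentage of NK/T cell-like cells of 5 dpw that held UMIs of at least 10 of the 37 genes (vertical axis), by identity gene (groups on the horizontal axis) and genotype (bars), with exact 95% binomial intervals and cell counts above the bars. Cells with Foxp3 are highest in both genotypes, at 63.9% and 48.4%, and the intervals of the genotypes overlap in every group.

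Other genes set the NK/T cell-like cells of 5 dpw with at least 10 of the genes apart from those with fewer. By the fixed ranking, histone genes and the clamp-binding factor Pclaf were the highest, with Hist1h3c at 255 and 166 CPM against 0 and 0, and Pclaf at 555 and 568 CPM against 1.71 and 0.777 CPM. The lowest included the chemokine genes Ccl3 (72.8 and 50.9 CPM against 443 and 468 CPM) and Ccl4 (147 and 192 against 642 and 984 CPM). Il7r, the interleukin-7 receptor of resting and innate-like lymphocytes, had 115 and 82.0 CPM against 525 and 595 CPM, and Ifng 50.9 and 49.8 against 180.1 and 184 CPM. Of the 12 NK/T cell markers, 10 were lower in cells with many of the genes in both libraries, as were 926 of all 2980 genes ranked. Over the 4 libraries, genes of other cell types were also seen in more of the 83 cells than of the 440 others, with Igkc, an antibody light chain gene, in 19.3% against 1.82% and Lyz2, the lysozyme gene of myeloid cells, in 37.3% against 19.5%. Depth moved with this split too, at a median of 19455 UMIs for the 83 cells against 6108.5 to 6997 for the class. The part of depth or of these genes in the differences was not tested.

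One cell of this kind carried antibody genes. It came from the Angptl4-/- library of 5 dpw, held 47943 UMIs, all 37 genes and 444 of their UMIs, and had 1067 UMIs of Igkc, 151 of Jchain and 17 of Cd79a. It had 0 UMIs of Trac, Trbc2, the Cd3 genes and Ncr1, which goes against the name of its class.

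The comparison of genotypes at 5 dpw in NK/T cell-like cells separated replication from mitosis in the pooled UMIs. The classes were alike in size, with 231 Angptl4+/+ and 220 Angptl4-/- cells at median depths of 6997 and 6831 UMIs. Replication genes summed to 948 CPM in Angptl4+/+ and 963 CPM in Angptl4-/- cells, a log2 ratio of 0.02 (-0.06 to 0.11). Mitosis genes summed to 3307 and 2237 CPM, a ratio of -0.56 (-0.62 to -0.51). All 23 mitosis genes were lower in Angptl4-/- cells, while of the 11 replication genes 5 were higher and 6 lower. Split by identity gene, the sum of the 37 genes went both ways. It was 2747 CPM in Angptl4+/+ and 3971 CPM in Angptl4-/- cells with Ncr1 and no Foxp3. In the same order it was 8217 and 5973 CPM with Foxp3 and 2813 and 908 CPM with Trac or Trbc2 only. It was 3586 and 233 CPM with Trdc or Cd163l1 and neither Foxp3 nor Ncr1. The rest had 102 and 5109 CPM, the latter with the antibody-gene cell. By a 2-fold rule 1 of the 35 genes with enough UMIs was called, Ube2c, against 0.955% of 5552 genes. The count was 0 without a cell filter, with cell cycle genes kept in the clustering and without integration, and 2 under the stricter cell filter.

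Ube2c (ENSMUSG00000001403, chr2:164769898-164778822, plus strand, GRCm38) had 538 UMIs in Angptl4+/+ and 260 in Angptl4-/- cells (233 and 116 CPM), a log2 ratio of -1.01 (-1.23 to -0.79). Cdk1 had 282 and 150 UMIs (-0.87, -1.17 to -0.58), Cenpf 609 and 327 (-0.86, -1.06 to -0.66) and Ccnb2 253 and 140 (-0.82, -1.12 to -0.51). Cells with a UMI numbered 42 and 24 for Ube2c, 41 and 25 for Cdk1, 40 and 23 for Cenpf and 38 and 27 for Ccnb2. Plk1, the polo-like kinase of mitotic entry, was at -0.81, and Hmmr and Tpx2, which build the spindle, at -0.77 and -0.75. Birc5 was at -0.68. The smallest differences among the mitosis genes were those of Top2a, with 980 and 801 UMIs (-0.25, -0.39 to -0.12), and Cenpe, a kinetochore motor, with 259 and 211 (-0.26, -0.53 to 0.01).

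By role, the log2 ratio was lowest for the anaphase-promoting complex and checkpoint (-0.83, -0.99 to -0.67) and ran from -0.62 to -0.52 for cyclins with Cdk1, kinases and passengers, centromere and spindle genes. Mki67 and Top2a together were at -0.33. The Mcm genes were at 0.05 (-0.06 to 0.16) and the clamp and nucleotide genes at -0.01 (-0.14 to 0.12). Mcm6 was higher in Angptl4-/- cells, with 239 and 300 UMIs (0.37, 0.12 to 0.62). Ccne2, cyclin E2 of replication entry, had 13 and 42 UMIs (1.73, 0.80 to 2.75), of which 14 of the 42 came from a single cell.

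**Figure D4:**
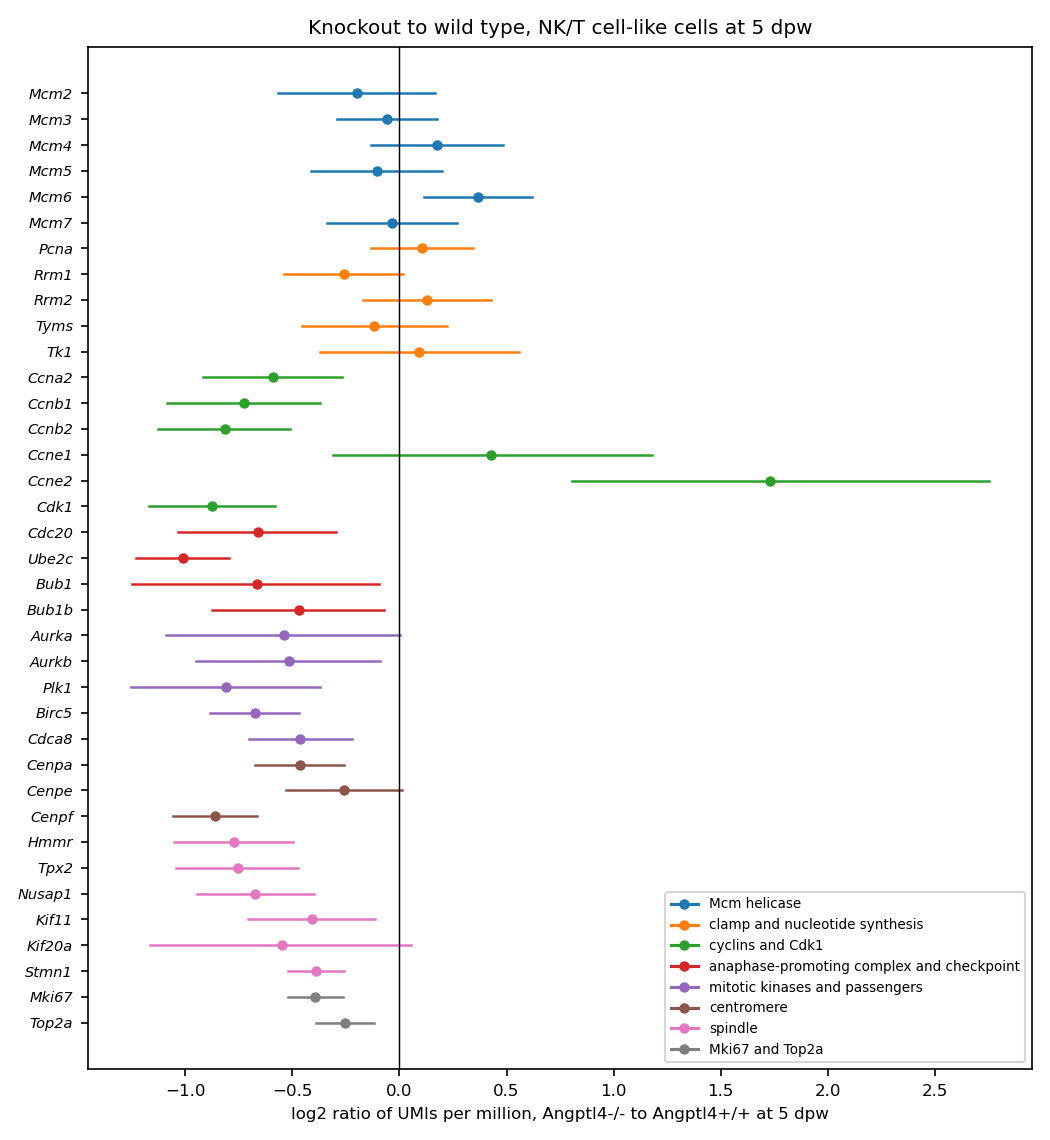
Log2 ratio of Angptl4-/- to Angptl4+/+ NK/T cell-like cells at 5 dpw (horizontal axis) for each of the 37 genes (rows), with 95% counting intervals and colours by role. The 23 mitosis genes lie left of 0, from -1.01 for Ube2c to -0.25 for Top2a, and the replication genes lie around 0, between -0.26 for Rrm1 and 0.37 for Mcm6.

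The share of NK/T cell-like cells with at least 10 of the genes was 21.6% in Angptl4+/+ and 14.1% in Angptl4-/- wounds, a difference of -7.55 points (-14.6 to -0.450), and 26.3% and 17.4% held at least 3 of the genes after thinning to 2000 UMIs. At a cut of 5 genes it was 28.6% and 21.8%, a difference of -6.75 points (-14.6 to 1.28). Without the cells of at least 10 genes the class held 423 CPM in Angptl4+/+ and 424.9 CPM in Angptl4-/- wounds, and its mitosis genes had a ratio of 0.15 (-0.16 to 0.47), with the cut again made on the same genes. Among the cells of at least 10 genes, replication genes took 20.2% (19.4 to 21.0) of replication and mitosis UMIs in Angptl4+/+ and 27.5% (26.5 to 28.6) in Angptl4-/- wounds. Cells with more replication than mitosis UMIs numbered 16 of 50 and 10 of 31. Split by identity gene, the replication share was 20.3% and 33.5% in cells with Foxp3. It was 24.9% and 16.4% in cells with Ncr1 and no Foxp3, and 21.6% and 11.5% with Trac or Trbc2 only. The 11.5% came from 2 cells. The top 5 cells held 29.6% of the UMIs of the 37 genes in the class in Angptl4+/+ and 38.1% in Angptl4-/- wounds. With the cell that carried antibody genes left out, the ratio over the 37 genes went from -0.40 (-0.44 to -0.36) to -0.45. At 1 dpw, with 118 and 137 UMIs in all, the ratio was 0.42 (0.05 to 0.78), and it rested on the replication genes, at 81 and 108 UMIs.

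Over all leukocytes, 32 of the 37 genes were lower in Angptl4-/- than in Angptl4+/+ wounds at 5 dpw, and the summed log2 ratio was -0.20 (-0.23 to -0.17). All 37 had enough UMIs and 1 of them passed the 2-fold rule, against 2.05% of 10785 genes. It was Ccne2, higher in Angptl4-/- wounds with 28 and 77 UMIs (1.59, 0.95 to 2.27), of which 16 of the 77 came from a single cell. Rrm2, with 218 and 264 UMIs, was at 0.41 (0.15 to 0.68). With NK/T cell-like cells left out both genotypes were level, at 203.7 and 203.1 CPM. Neutrophil-like cells, which were low in these genes, took up unlike parts of the libraries. They supplied 29.2% of the Angptl4+/+ UMIs of 5 dpw and 45.6% of the Angptl4-/- UMIs of that day. For 1 dpw these shares were 59.9% and 66.8%. Their part in the genotype ratios, with or without NK/T cell-like cells, was not tested. The count of 32 lower genes stands without a like count over all genes. At 1 dpw the summed ratio was -0.19 (-0.26 to -0.12), and 21 of the genes were higher and 16 lower in Angptl4-/- wounds. Of the 13 with enough UMIs at 1 dpw 0 passed the 2-fold rule, against 1.01% of 9663 genes.

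Monocyte/macrophage-like cells differed little between days or genotypes in the sum of the genes, at 203, 259.9, 213 and 255 CPM. Days differed by 0.36 (0.28 to 0.44) on the log2 scale for Angptl4+/+ and 0.26 (0.17 to 0.35) for Angptl4-/- cells. Replication genes had 0.58 (0.49 to 0.68) and 0.37 (0.25 to 0.49), and mitosis genes -0.14 (-0.27 to 0.00) and 0.07 (-0.08 to 0.22). Of 14 genes with enough UMIs in Angptl4+/+ cells, 6 were at least 2-fold higher and 1 at least 2-fold lower at 5 dpw, against 7.36% of 9128 genes called either way. The count of higher genes was 2 without a cell filter, under the stricter filter and without doublet candidates, and 3 at the finer clustering and with cell cycle genes kept in it. Of 10 in Angptl4-/- cells 1 was called, against 4.78% of 8387. Ube2c was the lower one, with 119 UMIs at 1 dpw and 17 at 5 dpw in Angptl4+/+ cells (-3.17, -3.99 to -2.43), and with 58 and 36 in Angptl4-/- cells (-0.94).

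In monocyte/macrophage-like cells at 5 dpw, mitosis genes summed to 65.1 CPM in Angptl4+/+ and 90.4 CPM in Angptl4-/- cells, a log2 ratio of 0.47 (0.34 to 0.61), and 17 of the 23 were higher in Angptl4-/- cells. Replication genes summed to 182 and 153 CPM, a ratio of -0.25 (-0.35 to -0.16), and 10 of the 11 were lower. Cenpa, with 349 and 311 UMIs (0.49, 0.26 to 0.71), held a large part of the mitosis sum. Birc5 had 19 and 37 UMIs (1.62, 0.78 to 2.50) and Ccna2 4 and 18 (2.82, 1.22 to 4.85). Cells with at least 10 of the genes numbered 7 of 1688 and 5 of 780, and they held 17.0% and 35.6% of the mitosis UMIs, with 21.3% of the Angptl4-/- sum in a single cell. Without them, a setting chosen after the data were seen, mitosis genes summed to 54.7 and 59.3 CPM, a ratio of 0.12 (-0.05 to 0.28), and replication genes to 161 and 138 CPM, a ratio of -0.22 (-0.32 to -0.12).

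By the count of genes per cell, more monocyte-like cells passed the cut of 5 genes at 1 dpw than at 5 dpw. At least 5 of the genes were found in 28 of 157 monocyte-like cells in Angptl4+/+ wounds (17.8%) and 10 of 127 in Angptl4-/- wounds (7.87%). At 5 dpw it was 3 of 141 (2.13%) and 5 of 133 (3.76%). Depth moved with day, at medians of 14622 and 13813 UMIs at 1 dpw and 9571 and 10553 at 5 dpw. After thinning to 2000 UMIs, at least 3 of the genes were found in 3, 1, 1 and 0 of 156, 139, 126 and 133 monocyte-like cells. Summed levels of the class were 240, 248, 197 and 143 CPM.

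Macrophage-like cells with at least 5 of the genes numbered 13, 58, 6 and 36. Compared with the 1136, 1489, 845 and 611 others, 6 of 3260 genes were at least 2-fold higher and 18 at least 2-fold lower in every library. Depth moved with this split, at medians of 21331, 13153, 20669 and 20868 UMIs against 6774.5, 8135, 5729 and 11332. Clusters were read at the cut of 10 genes and not at this cut of 5. At the finer clustering, the cluster led by Retnla and Lyz1 held at least 10 of the genes in 3 of 40, 4 of 119, 3 of 35 and 5 of 67 cells, and that led by Ptges and Cav1 in 0 of 588, 517, 367 and 187. The part of depth or of cluster in these differences was not tested. Outside the 37 genes the highest were Pclaf, Batf3, Fcrls, Clec4b1, H2-DMb1, Ybx3, Socs6, Ranbp1, Pa2g4 and Olfm1. Fcrls, a receptor-like gene of resident macrophages, had 26.3, 212, 350.5 and 235 CPM against 10.5, 72.1, 17.5 and 66.6 CPM in the others. H2-DMb1, of class II antigen loading, had 194, 539.8, 249 and 653 CPM against 38.8, 252, 65.4 and 291 CPM.

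The lowest were Ptgs2, Vegfa, Bnip3, Cxcl3, Pdpn, Errfi1, Arg1, Ndrg1, Mxd1 and Slfn4. Arg1, the arginase of wound macrophages, had 1734, 1096, 389 and 138 CPM against 5869.5, 2576, 4342 and 1769 CPM in the same order. Vegfa, the angiogenic factor, had 165, 61.2, 31.2 and 31.2 CPM against 547.5, 184, 467 and 240.02 CPM. Of the 14 macrophage markers 2 were higher and 3 lower in every library, against 894 and 556 of all 3260 genes ranked. Of the 18 macrophage-like cells with at least 10 of the genes, 18 held Lyz2, 17 Mrc1 and 10 Retnla, which was seen in 4.17% of the other macrophage-like cells, and 0 held Trac, Trbc2 or Ncr1.

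Dendritic cell-like cells differed between genotypes at 5 dpw, and a few cells held much of the sum. Summed levels were 326, 272, 287 and 571 CPM, from 110, 309, 86 and 213 cells. The log2 ratio of Angptl4-/- to Angptl4+/+ cells at 5 dpw was 1.07 (0.96 to 1.18), with 0.51 (0.37 to 0.66) for replication and 1.59 (1.40 to 1.79) for mitosis genes, and 36 of the 37 genes were higher. With enough UMIs, 4 of 11 were at least 2-fold higher or lower, against 1.69% of 6404 genes. With cell cycle genes kept in the clustering 1 was called higher, and the summed ratio was 0.57. Between days, 1 of the 4 with enough UMIs was called higher and 1 lower in Angptl4+/+ cells, against 6.27% of 5810 genes, and 4 of 6 were called in Angptl4-/- cells, against 4.06% of 5052.

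Rrm2 had 0 UMIs in Angptl4+/+ and 47 in Angptl4-/- dendritic cell-like cells at 5 dpw, at least 20.4-fold higher against the floor, with 21 of the 47 from a single cell. Stmn1, which controls microtubule growth, had 38 and 218 UMIs (2.90, 2.40 to 3.44), Top2a 18 and 122 (3.14, 2.42 to 3.95) and Mki67 26 and 109 (2.45, 1.82 to 3.13). Cells with at least 10 of the genes numbered 7 of 309 and 9 of 213. The top 5 cells held 50.8% of the UMIs of the 37 genes in the Angptl4-/- class and 19.5% in the Angptl4+/+ class. Without the cells of at least 10 genes the log2 ratio of genotypes was 0.06. Of the 18 such cells over the 4 libraries, 17 held Flt3, the growth factor receptor of dendritic cells, seen in 74.6% of the others. Xcr1, the receptor of cross-presenting dendritic cells, was seen in 7, against 5.00% of the others. Ccr7 and Cd209a, also on the dendritic cell list, went the other way, at 33.3% against 51.7% and 22.2% against 27.0%. Lyz2 was seen in 16, against 44.3%. Depth moved with this, at a median of 24109 UMIs for the 18 against 12912 to 14014 for the class. Its part was not tested. Trac was seen in 2 of the 18.

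Cenpa had 204 and 180 UMIs in Angptl4+/+ cells at 1 and 5 dpw (127 and 44.05 CPM) and 86 and 187 in Angptl4-/- dendritic cell-like cells (72.9 and 59.7 CPM). The log2 ratio of 5 to 1 dpw was -1.53 (-1.82 to -1.23) and -0.29 (-0.66 to 0.10).

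A further 129 listed cell cycle genes were read in the same way. Of those with enough UMIs over all leukocytes, 75 of 102 were at least 2-fold higher at 5 dpw and 2 lower in Angptl4+/+ wounds, and 66 of 97 were higher and 1 lower in Angptl4-/- wounds. Over all genes with enough UMIs, 30.1% and 24.7% were at least 2-fold higher. The listed genes had median log2 ratios of 1.67 and 1.55, against 0.66 and 0.62 for all genes. Spindle motor and cytokinesis genes had 11 of 13 and 11 of 12 higher. Kif23, the cytokinesis motor with the most UMIs of that list, had 12.8 and 23.4 CPM in Angptl4+/+ and 10.9 and 24.7 CPM in Angptl4-/- wounds. Prc1, which bundles the central spindle and was picked after its values were seen, had 1.10 and 14.2 CPM in Angptl4+/+ and 1.24 and 12.3 CPM in Angptl4-/- wounds. In NK/T cell-like cells at 5 dpw, spindle motor and cytokinesis genes summed to 1096 CPM in Angptl4+/+ and 760 CPM in Angptl4-/- cells (-0.53, -0.62 to -0.44), and replication fork genes to 1820 and 1837 CPM (0.01, -0.05 to 0.08).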

How the data were processed

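Live CD45+ cells of skin wounds were measured by droplet single-cell RNA sequencing in 4 libraries, 1 for each genotype and day, grouped by their labels. The authors deposited filtered matrices of UMI counts per gene and barcode. The submitters' processing notes name Cell Ranger 3.1.0, Seurat 3.0 and the mm10 genome. From the deposited counts, cells were kept from 200 detected genes upward and with mitochondrial UMIs up to 10%. Cells were clustered in Seurat 5.3.0 after integration of the libraries (2000 variable genes, 30 dimensions, Louvain resolution 0.5), with the 37 genes and other listed cell cycle genes left out, and clusters were named from marker lists. Doublet scores came from scanpy 1.11.5. Its automatic threshold marked 1, 3, 3 and 0 cells, 7 of 19827, and was not used. Instead the 4% of cells with the highest scores in each library were marked as candidates and kept.

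UMIs were summed per gene, class and library and divided by the class total, as a rate (CPM). Ratios have exact intervals at the 95% level (scipy 1.17.1, numpy 2.4.6, python 3.11.15), which treat UMIs as independent counts. Genes with at least 100 UMIs over 2 libraries were called at 2-fold. A gene at 0 was set to a floor of 3 UMIs. For equal depth, cells were thinned to 2000 UMIs (seed 1), leaving out shallower cells. Libraries held 26898397 to 32815888 UMIs in passing cells. With 1 library a group, no test was made. The interval script was tested on simulated data with independent counts for each gene. That could not test intervals for UMIs gathered in a few cells. Figures used matplotlib 3.10.9.

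The genes named were all 37 by role, other listed cell cycle genes by count with those of most UMIs in a list, and the 10 highest and 10 lowest genes between macrophage-like cells with and without at least 5 of the 37 genes, among genes with at least 100 UMIs in the former. The same ranking was used for NK/T cell-like cells at 10 genes, added after the data were seen, as were identity genes. Marker lists were given by count. The 37 genes and the lists were chosen with earlier results of these data known. Alternatives tried were other cell filters, doublet candidates left out, other cuts, clusterings, gene groups, UMI minimums and folds.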

Additional observations from a re-analysis of the deposited data

Results flagged for a closer look

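In dendritic cell-like cells the difference between 5 and 1 dpw had opposite signs in the genotypes, with both counting intervals on their own side of 0, for 3 of the genes and for the sum of the 37. The log2 ratio of 5 to 1 dpw was -2.93 in Angptl4+/+ and 3.21 in Angptl4-/- cells for Birc5, from 9 and 3 UMIs and from 2 and 49 UMIs. For Nusap1, which bundles spindle microtubules, it was -3.67 and 2.45, from 5 and 1 UMIs and from 2 and 29 UMIs. For Mki67 it was -2.14 and 1.36, from 45 and 26 UMIs and from 16 and 109 UMIs. The sum of the 37 genes had -0.26 and 0.99. The difference between genotypes in these ratios was not tested. The top 5 of 213 cells held 50.8% of the UMIs of the 37 genes in the Angptl4-/- class at 5 dpw, and without cells of at least 10 genes the summed ratios were -0.50 and 0.11. They were -0.094 and 0.21 without doublet candidates and -0.081 and 0.19 without a cell filter, where the Angptl4-/- level at 1 dpw was 509 CPM in place of 287 CPM.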

How the results depend on the processing

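No paired analysis was possible because each group has 1 sample, and for the same reason no replicate could be left out. The results were computed again under 16 other settings, which gave 951 values. Of these, 669 moved by less than their interval or kept their count within 1.5 times and 274 moved further. The interval was that for counting error, except for medians over the genes. Those were judged against 1 standard deviation of the log2 ratios over the genes. Another 8 changed sign where the main interval lay wholly on 1 side of 0. Ratios whose main interval held 0 were not counted as changing sign. Among those that did change were the genotype ratios at 1 dpw in dendritic cell-like and monocyte/macrophage-like cells. Their main levels in Angptl4-/- against Angptl4+/+ wounds were 287 against 326 CPM and 213 against 203 CPM. Every log2 ratio of days over all cells stayed above 0 under every setting, as did those in NK/T cell-like cells. The cause of each move was not tested, apart from settings that read other genes or fewer cells by construction. The values counted as changing sign included 2 ratios of days in Angptl4+/+ cells. They were -0.14 in monocyte/macrophage-like cells from mitosis genes alone and 0.69 in dendritic cell-like cells from replication genes alone. They also included the ratios of genotypes in NK/T cell-like cells. The latter went to -0.044 at 1 dpw from mitosis genes alone and to -0.041 without cells of at least 10 genes, and at 5 dpw to 0.023 from replication genes alone and 0.0052 without cells of at least 10 genes. Without cells of at least 10 genes, the ratios of genotypes at 5 dpw for mitosis genes alone were -0.018 in all cells, 0.12 in monocyte/macrophage-like, 0.34 in dendritic cell-like and 0.15, a change of sign, in NK/T cell-like cells. For replication genes alone they were -0.40 in all cells and -0.10, a change of sign, in dendritic cell-like cells. Leaving out the antibody-gene cell or the cells of at least 10 genes, and the cut of 10 genes, were chosen after the data were seen. All moved values follow, with Angptl4+/+ as wild type and Angptl4-/- as knockout. Shares over all genes were not computed under these settings, so counts of genes called stand there without a background.

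At 3 genes a cell, percentages of cells past the cut were in all cells 4.7 (wild type day 1), 11.0 (wild type day 5), 2.79 (knockout day 1), 8.27 (knockout day 5), in NK/T cell-like cells 44.7 (wild type day 1), 45.5 (wild type day 5), 32.4 (knockout day 1), 47.3 (knockout day 5), in monocyte/macrophage-like cells 13.3 (wild type day 1), 19.1 (wild type day 5), 10.1 (knockout day 1), 25.1 (knockout day 5), in dendritic cell-like cells 46.4 (wild type day 1), 34.6 (wild type day 5), 27.9 (knockout day 1), 40.4 (knockout day 5). At 8 genes a cell, percentages of cells past the cut were in all cells 0.168 (wild type day 1), 1.54 (wild type day 5), 0.167 (knockout day 1), 1.27 (knockout day 5), in NK/T cell-like cells 0.00 (wild type day 1), in monocyte/macrophage-like cells 0.459 (wild type day 1), 0.592 (wild type day 5), 0.409 (knockout day 1), 1.41 (knockout day 5), in dendritic cell-like cells 2.73 (wild type day 1), 3.56 (wild type day 5), 1.16 (knockout day 1), 5.16 (knockout day 5). In thinned cells, percentages of cells past the cut were in all cells 0.237 (wild type day 1), 1.91 (wild type day 5), 0.201 (knockout day 1), 1.12 (knockout day 5), in monocyte/macrophage-like cells 0.524 (wild type day 1), 1.22 (wild type day 5), 0.615 (knockout day 1), 0.531 (knockout day 5), in dendritic cell-like cells 1.83 (wild type day 1), 1.96 (wild type day 5), 2.38 (knockout day 1), 3.3 (knockout day 5). At 10 genes a cell, percentages of cells past the cut were in all cells 0.0935 (wild type day 1), 1.29 (wild type day 5), 0.125 (knockout day 1), 0.95 (knockout day 5), in NK/T cell-like cells 0.00 (wild type day 1), 21.6 (wild type day 5), 14.1 (knockout day 5), in monocyte/macrophage-like cells 0.306 (wild type day 1), 0.415 (wild type day 5), 0.307 (knockout day 1), 0.641 (knockout day 5), in dendritic cell-like cells 0.909 (wild type day 1), 2.27 (wild type day 5), 1.16 (knockout day 1), 4.23 (knockout day 5). Under the stricter cell filter, percentages of cells past the cut were in all cells 2.59 (wild type day 5). Under the stricter cell filter, summed levels in CPM were in all cells 498 (wild type day 5), 414 (knockout day 5), in NK/T cell-like cells 5177 (wild type day 5), 3707 (knockout day 5), in monocyte/macrophage-like cells 245 (wild type day 5), in dendritic cell-like cells 630.5 (knockout day 5). Under the stricter cell filter, log2 ratios of the summed level were in all cells -0.27 (genotypes at 5 dpw), 2.14 (days in wild type), 2.05 (days in knockout), in NK/T cell-like cells -0.48 (genotypes at 5 dpw), in monocyte/macrophage-like cells 0.081 (genotypes at 5 dpw), 0.28 (days in wild type). Under the stricter cell filter, counts of genes called higher were in all cells 0 (genotypes at 5 dpw), in monocyte/macrophage-like cells 2 (days in wild type), in dendritic cell-like cells 2 (days in wild type). Under the stricter cell filter, counts of genes called lower were in NK/T cell-like cells 2 (genotypes at 5 dpw). Without a cell filter, percentages of cells past the cut were in monocyte/macrophage-like cells 2.68 (wild type day 5), 3.48 (knockout day 5). Without a cell filter, summed levels in CPM were in monocyte/macrophage-like cells 190.2 (wild type day 1), 223 (wild type day 5), 167 (knockout day 1), 198 (knockout day 5), in dendritic cell-like cells 367 (wild type day 1), 347 (wild type day 5), 509 (knockout day 1). Without a cell filter, log2 ratios of the summed level were in monocyte/macrophage-like cells -0.19 (genotypes at 1 dpw), -0.17 (genotypes at 5 dpw), 0.23 (days in wild type), in dendritic cell-like cells 0.47 (genotypes at 1 dpw), 0.74 (genotypes at 5 dpw), -0.081 (days in wild type), 0.19 (days in knockout). Without a cell filter, counts of genes called higher were in monocyte/macrophage-like cells 2 (days in wild type), 2 (days in knockout), in dendritic cell-like cells 3 (days in wild type), 2 (days in knockout). Without a cell filter, counts of genes called lower were in NK/T cell-like cells 0 (genotypes at 5 dpw), in dendritic cell-like cells 2 (days in wild type). Without a cell filter, median log2 ratios over the genes were in dendritic cell-like cells 0.14 (days in knockout). Without doublet candidates, percentages of cells past the cut were in monocyte/macrophage-like cells 3.66 (knockout day 5). Without doublet candidates, summed levels in CPM were in all cells 571 (wild type day 5), 506 (knockout day 5), in NK/T cell-like cells 5082 (wild type day 5), 3766 (knockout day 5), in monocyte/macrophage-like cells 224 (wild type day 5), 169 (knockout day 1), 201 (knockout day 5), in dendritic cell-like cells 362 (wild type day 1), 339 (wild type day 5), 509 (knockout day 1). Without doublet candidates, log2 ratios of the summed level were in monocyte/macrophage-like cells -0.21 (genotypes at 1 dpw), -0.16 (genotypes at 5 dpw), 0.20 (days in wild type), in dendritic cell-like cells 0.49 (genotypes at 1 dpw), 0.80 (genotypes at 5 dpw), -0.094 (days in wild type), 0.21 (days in knockout). Without doublet candidates, counts of genes called higher were in monocyte/macrophage-like cells 2 (days in wild type), 2 (days in knockout), in dendritic cell-like cells 3 (days in wild type), 2 (days in knockout). Without doublet candidates, counts of genes called lower were in dendritic cell-like cells 2 (days in wild type). Without doublet candidates, median log2 ratios over the genes were in dendritic cell-like cells 0.20 (days in knockout). From replication genes alone, summed levels in CPM were in all cells 62.0 (wild type day 1), 201 (wild type day 5), 54.5 (knockout day 1), 181 (knockout day 5), in NK/T cell-like cells 279 (wild type day 1), 948 (wild type day 5), 427 (knockout day 1), 963 (knockout day 5), in monocyte/macrophage-like cells 122 (wild type day 1), 182 (wild type day 5), 118 (knockout day 1), 153 (knockout day 5), in dendritic cell-like cells 114 (wild type day 1), 183 (wild type day 5), 145 (knockout day 1), 261 (knockout day 5), in neutrophil-like cells 20.5 (wild type day 1), 40.6 (wild type day 5), 16.9 (knockout day 1), 37.0 (knockout day 5). From replication genes alone, log2 ratios of the summed level were in all cells -0.15 (genotypes at 5 dpw), 1.70 (days in wild type), 1.73 (days in knockout), in NK/T cell-like cells 0.023 (genotypes at 5 dpw), 1.77 (days in wild type), 1.17 (days in knockout), in monocyte/macrophage-like cells -0.042 (genotypes at 1 dpw), -0.25 (genotypes at 5 dpw), 0.58 (days in wild type), 0.37 (days in knockout), in dendritic cell-like cells 0.35 (genotypes at 1 dpw), 0.51 (genotypes at 5 dpw), 0.69 (days in wild type), in neutrophil-like cells 0.98 (days in wild type), 1.13 (days in knockout). From mitosis genes alone, summed levels in CPM were in all cells 47.4 (wild type day 1), 311 (wild type day 5), 42.5 (knockout day 1), 258 (knockout day 5), in NK/T cell-like cells 110.1 (wild type day 1), 3307 (wild type day 5), 107 (knockout day 1), 2237 (knockout day 5), in monocyte/macrophage-like cells 71.6 (wild type day 1), 65.1 (wild type day 5), 86.0 (knockout day 1), 90.4 (knockout day 5), in dendritic cell-like cells 199 (wild type day 1), 76.6 (wild type day 5), 129 (knockout day 1), 231 (knockout day 5), in neutrophil-like cells 20.4 (wild type day 1), 30.1 (wild type day 5), 17.8 (knockout day 1), 28.4 (knockout day 5). From mitosis genes alone, log2 ratios of the summed level were in all cells -0.27 (genotypes at 5 dpw), 2.71 (days in wild type), 2.60 (days in knockout), in NK/T cell-like cells -0.044 (genotypes at 1 dpw), -0.56 (genotypes at 5 dpw), 4.91 (days in wild type), 4.39 (days in knockout), in monocyte/macrophage-like cells 0.26 (genotypes at 1 dpw), 0.47 (genotypes at 5 dpw), -0.14 (days in wild type), 0.073 (days in knockout), in dendritic cell-like cells -0.63 (genotypes at 1 dpw), 1.59 (genotypes at 5 dpw), -1.38 (days in wild type), in neutrophil-like cells 0.56 (days in wild type), 0.67 (days in knockout). Without cells of at least 10 genes, summed levels in CPM were in all cells 109 (wild type day 1), 186 (wild type day 5), 83.7 (knockout day 1), 154 (knockout day 5), in NK/T cell-like cells 423 (wild type day 5), 395 (knockout day 1), 425 (knockout day 5), in monocyte/macrophage-like cells 189 (wild type day 1), 223 (wild type day 5), 169 (knockout day 1), 203 (knockout day 5), in dendritic cell-like cells 219.9 (wild type day 5), 213 (knockout day 1), 229.7 (knockout day 5). Without cells of at least 10 genes, log2 ratios of the summed level were in all cells -0.39 (genotypes at 1 dpw), -0.28 (genotypes at 5 dpw), 0.77 (days in wild type), 0.88 (days in knockout), in NK/T cell-like cells -0.041 (genotypes at 1 dpw), 0.0052 (genotypes at 5 dpw), 0.061 (days in wild type), 0.11 (days in knockout), in monocyte/macrophage-like cells -0.16 (genotypes at 1 dpw), -0.14 (genotypes at 5 dpw), 0.24 (days in wild type), in dendritic cell-like cells -0.55 (genotypes at 1 dpw), 0.062 (genotypes at 5 dpw), -0.50 (days in wild type), 0.11 (days in knockout). Without the antibody-gene cell, summed levels in CPM were in all cells 472 (knockout day 5), in NK/T cell-like cells 3482 (knockout day 5). Without the antibody-gene cell, log2 ratios of the summed level were in all cells -0.25 (genotypes at 5 dpw), in NK/T cell-like cells -0.45 (genotypes at 5 dpw). With at least 30 UMIs a gene, counts of genes called higher were in all cells 1 (genotypes at 1 dpw), in NK/T cell-like cells 1 (genotypes at 5 dpw), in monocyte/macrophage-like cells 2 (genotypes at 1 dpw), 3 (genotypes at 5 dpw), 4 (days in knockout), in dendritic cell-like cells 2 (genotypes at 1 dpw), 9 (genotypes at 5 dpw), 6 (days in wild type), 11 (days in knockout), in neutrophil-like cells 2 (days in wild type), 5 (days in knockout). With at least 30 UMIs a gene, counts of genes called lower were in monocyte/macrophage-like cells 3 (days in wild type), in dendritic cell-like cells 1 (genotypes at 1 dpw), 2 (days in wild type), in neutrophil-like cells 1 (genotypes at 1 dpw). At a 1.5-fold rule, counts of genes called higher were in monocyte/macrophage-like cells 3 (days in knockout), in dendritic cell-like cells 2 (days in wild type), in neutrophil-like cells 2 (days in wild type), 2 (days in knockout). At a 1.5-fold rule, counts of genes called lower were in all cells 1 (genotypes at 1 dpw), 4 (genotypes at 5 dpw), in NK/T cell-like cells 13 (genotypes at 5 dpw), in dendritic cell-like cells 1 (genotypes at 1 dpw). At the finer clustering, summed levels in CPM were in monocyte/macrophage-like cells 212 (wild type day 1), 270.4 (wild type day 5), 230.01 (knockout day 1), 269 (knockout day 5). At the finer clustering, counts of genes called higher were in monocyte/macrophage-like cells 3 (days in wild type). With cell cycle genes clustered, summed levels in CPM were in NK/T cell-like cells 735 (wild type day 1), 1485 (knockout day 1), 3841 (knockout day 5), in monocyte/macrophage-like cells 239 (wild type day 5), 176 (knockout day 1), 212 (knockout day 5), in dendritic cell-like cells 401 (knockout day 5). With cell cycle genes clustered, log2 ratios of the summed level were in NK/T cell-like cells 1.02 (genotypes at 1 dpw), -0.33 (genotypes at 5 dpw), 2.71 (days in wild type), 1.37 (days in knockout), in monocyte/macrophage-like cells -0.15 (genotypes at 1 dpw), -0.17 (genotypes at 5 dpw), in dendritic cell-like cells 0.57 (genotypes at 5 dpw), 0.49 (days in knockout). With cell cycle genes clustered, counts of genes called higher were in monocyte/macrophage-like cells 3 (days in wild type), 2 (days in knockout), in dendritic cell-like cells 1 (genotypes at 5 dpw), 2 (days in knockout). With cell cycle genes clustered, counts of genes called lower were in NK/T cell-like cells 0 (genotypes at 5 dpw). Without integration, summed levels in CPM were in dendritic cell-like cells 296 (wild type day 5). Without integration, log2 ratios of the summed level were in dendritic cell-like cells 0.92 (genotypes at 5 dpw). Without integration, counts of genes called higher were in dendritic cell-like cells 2 (days in wild type). Without integration, counts of genes called lower were in NK/T cell-like cells 0 (genotypes at 5 dpw).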

Other observations

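Genes of the phase before replication were read as list sums over all leukocytes. The D-type cyclin genes with Cdk4, Cdk6, Cdk2 and Myc summed to 221 and 384 CPM in Angptl4+/+ wounds at 1 and 5 dpw. In Angptl4-/- wounds they summed to 224 and 379 CPM. Ccnd1, cyclin D1, had 8.38 and 58.0 CPM and 10.8 and 49.8 CPM. Cyclin-dependent kinase inhibitors and other brakes on division summed to 4530 and 4156 CPM in Angptl4+/+ and to 4489 and 5293 CPM in Angptl4-/- wounds. At 5 dpw the brakes were higher in Angptl4-/- wounds by 0.35 (0.34 to 0.36) on the log2 scale. Neutrophil-like cells moved with this, at 54.5% of Angptl4+/+ and 73.8% of Angptl4-/- leukocytes. Within neutrophil-like cells the brakes differed by 0.072 (0.059 to 0.086) and within monocyte/macrophage-like cells by -0.072 (-0.095 to -0.048).

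Some cell cycle genes outside the 37 had higher levels in neutrophil-like than in monocyte/macrophage-like cells over the 4 libraries, a choice made after their values were seen. They included Lmnb1, a nuclear lamina gene, at 1151 and 116 CPM, Cks2, a binding partner of cyclin-dependent kinases, at 85.1 and 23.8 CPM, and Cdc25b, a phosphatase that activates them, at 42.0 and 8.95 CPM. Hjurp, the chaperone that deposits the centromeric histone, had 59.7 and 31.6 CPM. Neutrophil-like cells with 5 or more of the 37 genes numbered 0 in all 4 libraries.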
